A study of Rattus norvegicus with 4 samples.

Results

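The genes described here are the splicing regulators of the SR protein and hnRNP families, with 6 regulators that shape splicing in striated muscle. They were taken by symbol: all Srsf genes that carry a number, all genes whose symbol starts with Hnrnp, and Rbm20, Rbm24, Mbnl1, Mbnl2, Celf1 and Rbfox2. This gave 35 of the 14137 gene identifiers in the deposited table: 10 SR protein genes, 19 hnRNP genes and the 6 muscle regulators. The samples were cardiomyocytes from the ventricles of newborn rats (NRVMs), grown in primary culture, where other cells of the heart usually remain. One group, labelled WT, received a lentivirus with a control shRNA, and the other, labelled KO, a lentivirus with an shRNA against Crat, called the Crat hairpin here. Crat encodes carnitine acetyltransferase of mitochondria. RNA was taken after 5 days, and there were 2 libraries per group. All 4 libraries thus carry lentivirus, the hairpin lowers the transcript rather than deleting the gene, and whether replicates are separate cultures is not stated. The p-values thus rest on the spread between libraries, which may be technical, and in part on a spread shared across genes.

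Splicing joins exons and removes introns, and alternative splicing chooses which exons are kept. SR proteins bind enhancers in exons through RNA recognition domains and recruit the spliceosome through a domain rich in arginine and serine, which SRPK and CLK kinases phosphorylate. The hnRNP proteins coat new transcripts and often act against SR proteins by silencing exons. In heart muscle RBM20 holds exons out of titin and is mutated in a form of dilated cardiomyopathy, RBM24 promotes inclusion of muscle exons, and MBNL and CELF proteins act in opposite ways on the switch from fetal to adult exons. The table gives a single value per gene, so it measures the amount of each regulator's transcript and not the exons that were chosen.

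Values are in RPM, reads scaled to the library total and not divided by gene length, so levels are compared between libraries and not between genes. Depth was uneven, from 321516 reads in Crat hairpin replicate 1 to 23680064 in control replicate 1, a 73.7-fold spread. Fold changes are differences of log2(RPM + 1), Crat hairpin minus control, with a standard error (SE) over 2 libraries against 2. They were tested with limma, which draws part of each gene's variance from other genes of similar mean. A gene was called at a Benjamini-Hochberg adjusted p below 0.05 over the 12949 genes that averaged 1 RPM or more, which included all 35 splicing regulators. The targeted gene Crat stood at 148 and 156 RPM in the controls against 24.9 and 19.7 RPM with the Crat hairpin. The median log2 fold change of all genes tested was 0.15. Under median-of-ratios scaling, which sets the typical gene to no change, it was -0.03 and the fold changes of all genes moved by a median of -0.19. A small difference in RPM can therefore lie on either side of 0, depending on the scaling.

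Most splicing regulators kept a similar share of the reads in both groups. Of the 35 genes, 3 rose (Hnrnpu, Hnrnpf and Mbnl2), 1 fell (Rbm24) and 31 did not pass. Among all genes tested, 12.6% were called higher and 6.36% lower. Under median-of-ratios scaling none of the 35 rose and 4 fell (Rbm24, Celf1, Hnrnpa3 and Hnrnpab), where 8.06% of all genes rose and 9.68% fell; 9 of the 35 had an unadjusted p below 0.05 there, 1 rose in edgeR and none in DESeq2. The median log2 fold change of the 35 genes was 0.06 in RPM and -0.14 under median-of-ratios scaling. Their summed level was 5633 and 5666 RPM in the controls and 5658 and 6127 RPM in the Crat hairpin libraries. For 32 of the 35 genes the 95% interval of the log2 fold change lay inside a 2-fold change in either direction, and the exceptions were Rbm24, Hnrnph3 and Srsf9. Under median-of-ratios scaling this held for 31. Among the 12949 genes tested the interval lay inside a 2-fold change for 5200 in RPM and for 5408 under median-of-ratios scaling.

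**Figure D1:**
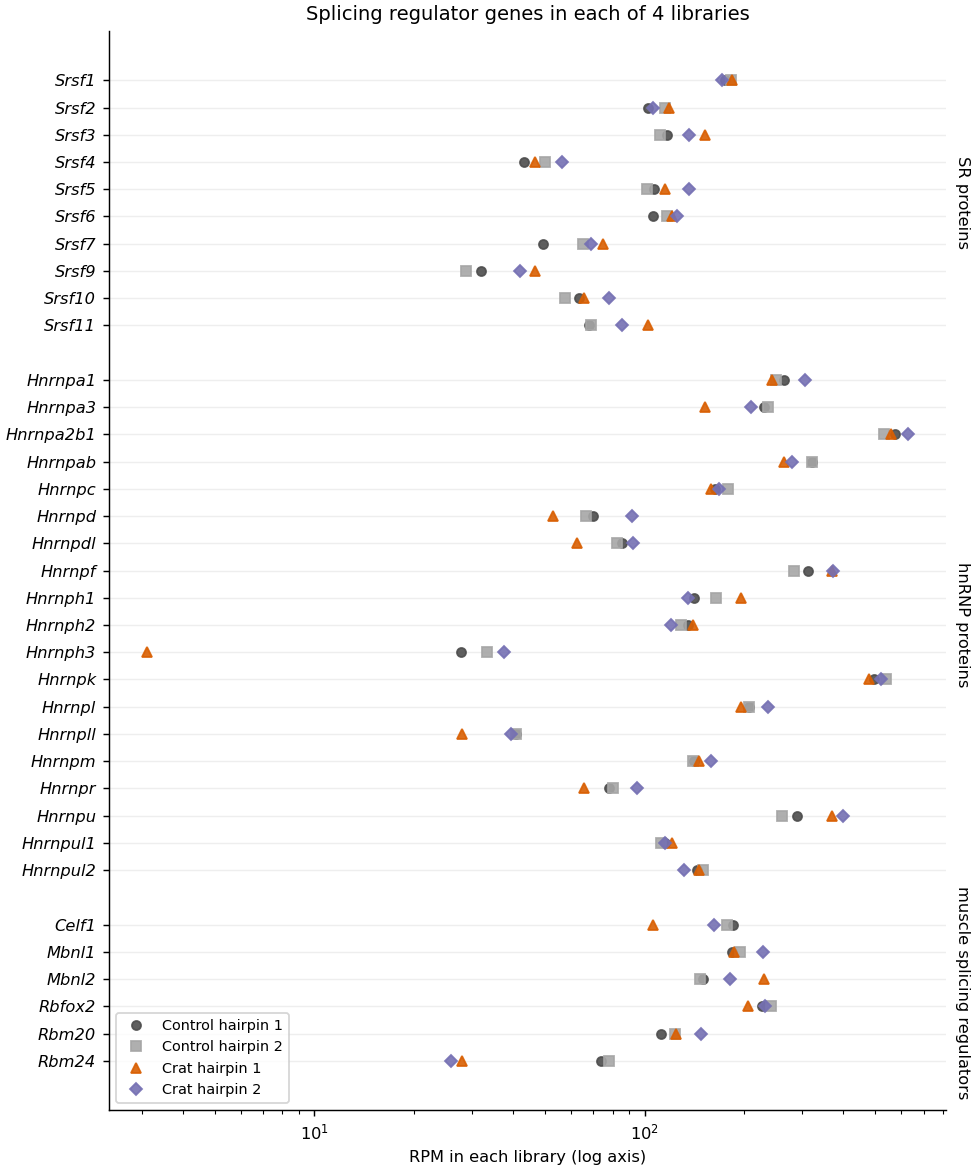
RPM on a log axis for each of the 35 splicing regulator genes, with a marker for each of the 4 libraries. Apart from Rbm24, which is lower in both Crat hairpin libraries, and Hnrnph3, which has a single low library at 3.11 RPM, the 4 markers of a gene lie close together.

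The call counts rested on the libraries and the method used. Without control replicate 1 none of the 35 genes passed limma (3 at an unadjusted p below 0.05), where 3.58% of all genes were called higher and 1.46% lower, and without control replicate 2 none passed (2 unadjusted), where 3.24% and 1.35% were. Without Crat hairpin replicate 1 there were 8 rises and 1 fall (20.1% and 10.3% of all genes), and without Crat hairpin replicate 2 there were 7 rises and 7 falls (27.7% and 20.3%). The lone library of a group was then assumed to vary like the other pair. On the recovered reads edgeR called 1 rise and 7 falls (13.7% and 15.9% of all genes), DESeq2 0 and 2 (6.13% and 7.09%), and edgeR with library totals in place of its own scaling, chosen after seeing the data, 7 and 3 (22.6% and 10.1%). The authors' deposited table has 0 and 3 (4.91% and 5.60%). With TMM scaling there were 0 and 4 (7.78% and 9.87%), without a variance trend 0 and 1 (2.05% and 0.610%), and after thinning 0 and 0 (0.691% and 0.432%, with 7 of the 35 at an unadjusted p below 0.05). Pseudocounts of 0.25 and 5, a minimum mean of 10, a robust prior and a replicate block each gave 3 and 1, where 12.1%, 13.1%, 18.5%, 12.9% and 13.1% of all genes were called higher and 5.94%, 6.70%, 9.35%, 6.50% and 6.91% lower. With no filter there were 2 and 1 (10.2% and 5.16%).

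Rbm24 gave the largest difference among the genes that passed. It encodes an RNA-binding protein of heart and skeletal muscle that promotes muscle-specific exons and is needed to build sarcomeres. Its level was 73.7 and 77.9 RPM in the controls against 28.0 and 25.9 RPM with the Crat hairpin, on 1745, 103, 9 and 42 reads. Both Crat hairpin libraries lay far below both controls, and even the shallowest, with an exact Poisson interval of 12.8 to 53.1 RPM that covers counting error only, did not reach them. The log2 fold change was -1.46 ± 0.19 (SE; limma adjusted p = 6.4e-04), and the 95% interval ran from -1.90 to -1.02. It was -1.65 under median-of-ratios scaling, -1.71 in both edgeR and DESeq2 on the recovered reads, and between -1.51 and -1.40 with any library left out. Without control replicate 1 the adjusted p was 0.0724, without control replicate 2 it was 0.0952, and it was 0.139 when all libraries were thinned once to the depth of the shallowest. In the authors' deposited table its adjusted p is 4.6e-05.

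The promoter of Rbm24 is shown because it is the gene that fell in the most settings, and that of Hnrnpu because it had the smallest adjusted p among the genes that rose. Both are from RefSeq, build GRCr8, minus strand, 250 bases before to 50 after the annotated start, at chr17:18493579-18493878 for Rbm24 and chr13:92618531-92618830 for Hnrnpu. Capitals mark matches on either strand to 3 motifs, the TATA box (letters TATAAA), the CCAAT box (letters CCAAT) and the E-box (letters CANNTG), which may overlap each other. The Rbm24 window held 1 E-box match, and that of Hnrnpu held 1 CCAAT box and 1 E-box match.
Rbm24: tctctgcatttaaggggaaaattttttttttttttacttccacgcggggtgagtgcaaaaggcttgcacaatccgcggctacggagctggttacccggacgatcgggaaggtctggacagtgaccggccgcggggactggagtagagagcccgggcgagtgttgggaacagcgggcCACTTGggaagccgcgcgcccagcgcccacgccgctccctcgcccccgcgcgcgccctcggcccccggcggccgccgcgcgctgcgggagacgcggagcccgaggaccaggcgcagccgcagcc
Hnrnpu: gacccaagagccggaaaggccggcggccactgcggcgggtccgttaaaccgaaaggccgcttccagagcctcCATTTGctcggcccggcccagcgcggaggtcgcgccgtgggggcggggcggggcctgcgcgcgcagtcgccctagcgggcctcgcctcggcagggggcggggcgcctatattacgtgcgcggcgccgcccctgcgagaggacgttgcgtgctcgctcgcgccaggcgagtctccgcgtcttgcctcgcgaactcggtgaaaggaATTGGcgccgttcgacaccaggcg

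Both windows are rich in G and C, 68.3% for Rbm24 and 73.0% for Hnrnpu, against a median of 51.7% over 33469 promoters of this length. By symbol 32 of the 35 genes had a promoter, and Rbm20, Rbfox2 and Hnrnpll had no entry. CCAAT was found in 21 of these 32 genes and in 37.5% of all promoters, CANNTG in 21 and in 72.1%, and TATAAA in 7 and in 14.2%. Some genes have several starts, and a gene was counted if any of its windows matched. A match or its lack describes the letters of these windows only.

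Markers of heart muscle cells fell with Rbm24. Of 12 listed cardiomyocyte markers 10 had a value, all with reads in every library, and 9 of them fell and none rose. Among all genes tested 6.36% fell and 12.6% rose. Their summed level was 27357 and 27782 RPM in the control libraries and 9701 and 9896 RPM in the Crat hairpin libraries, 0.355 of the control mean. Rbm24 itself was at 0.355 of its control mean. The sum is weighted to abundant genes, with Myh6 alone at 8573 and 9126 RPM in the controls. Single markers changed by unequal amounts. Their log2 fold changes ran from -0.02 for Ryr2, which did not pass (adjusted p = 0.923), and -0.52 for Myl2 to -2.21 for Tnnc1. Per 1000 RPM of these markers Rbm24 stood at 2.69 and 2.80 in the controls and at 2.89 and 2.61 with the Crat hairpin, so relative to the markers the groups overlapped. In bulk RNA fewer cells of a type and less RNA per cell cannot be told apart. The part of the cell makeup in the Rbm24 result was not tested.

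Rbm20 did not pass in RPM and differed little between the groups. It encodes the striated muscle repressor of titin exons, and its level was 112 and 123 RPM in the controls and 124 and 148 RPM in the Crat hairpin libraries. The Crat hairpin libraries were slightly above the controls, with a log2 fold change of 0.21 ± 0.14 (SE; adjusted p = 0.345) and a 95% interval from -0.10 to 0.52. Under median-of-ratios scaling it was 0.02, and without Crat hairpin replicate 1 it was 0.33 and passed (adjusted p = 0.0412). Per 1000 RPM of the cardiomyocyte markers Rbm20 stood at 4.10 and 4.44 in the controls and at 12.8 and 15.004 with the Crat hairpin. This rise follows mostly from the lower marker sum, since the RPM of Rbm20 changed little. The ratio of Rbm24 to Rbm20 in a library, which no scaling changes, was 0.658 and 0.632 in the controls and 0.225 and 0.174 in the Crat hairpin libraries. This pair was chosen after its values were seen. The ratio had a log2 difference of -1.70 with no overlap, and an exact two-sided permutation test gave p = 0.333, the smallest that 2 against 2 libraries allow.

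**Figure D2:**
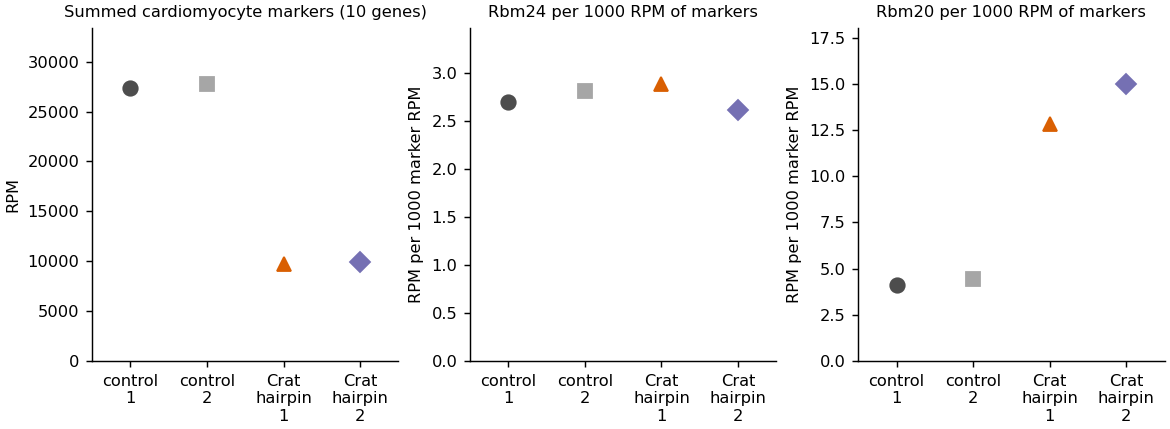
Summed RPM of 10 cardiomyocyte markers (left), and RPM of Rbm24 (middle) and of Rbm20 (right) per 1000 RPM of those markers, in each of the 4 libraries. The marker sum is lower in the Crat hairpin libraries, Rbm24 per marker lies between 2.61 and 2.89 in all 4 libraries, and Rbm20 per marker is higher in both Crat hairpin libraries.

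Markers of smooth muscle, pericytes and fibroblasts changed too, and those of endothelium and leukocytes mostly did not pass. Among all genes tested 12.6% were called higher and 6.36% lower. Of 12 markers of smooth muscle and pericytes 9 fell and 1 rose, with sums of 6964 and 7073 RPM in the controls and 2538 and 2681 RPM in the Crat hairpin libraries. Of 12 fibroblast markers 7 fell and 3 rose, with sums of 31564 and 33036 against 24167 and 24784 RPM. Of 8 endothelial markers tested 1 rose and 1 fell, and their sum was 335 and 366 against 295 and 357 RPM. Most of that sum was Eng, at 276 and 297 against 224 and 287 RPM. None of 9 leukocyte markers passed limma (0 at an unadjusted p below 0.05). In edgeR 1 was higher and in DESeq2 0, where 13.7% and 6.13% of all genes were called higher. The leukocyte sum was 49.1 and 47.7 against 59.1 and 64.1 RPM. None of the markers with a row was at 0 in all 4 libraries.

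The MBNL and CELF regulators, which pull the fetal to adult switch in opposite directions, differed less. Mbnl2 stood at 150 and 147 RPM in the controls and at 230 and 182 RPM in the Crat hairpin libraries, where the groups did not overlap but the Crat hairpin libraries differed from each other. Mbnl2 did not pass in DESeq2 on the recovered reads (adjusted p = 0.607) or in the authors' deposited table (adjusted p = 0.764). Its log2 fold change in RPM was 0.46 ± 0.13 (SE; limma adjusted p = 0.0386). It was 0.27 under median-of-ratios scaling (adjusted p = 0.212), and it lost the call without control replicate 1 (adjusted p = 0.313) and without control replicate 2 (adjusted p = 0.394); without Crat hairpin replicate 1 the value was 0.29 (adjusted p = 0.0452). Mbnl1 stood at 184 and 194 RPM in the controls and at 187 and 229 RPM in the Crat hairpin libraries, so the groups overlapped, with a log2 fold change of 0.13 ± 0.12 (SE; adjusted p = 0.521). Mbnl1 passed without Crat hairpin replicate 1, at 0.27 (adjusted p = 0.0442), and was -0.065 under median-of-ratios scaling.

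Celf1, which favours fetal exons, stood at 185 and 178 RPM in the controls and at 106 and 163 RPM in the Crat hairpin libraries. Both Crat hairpin libraries were below the controls, the shallow replicate 1 by more, and the log2 fold change was -0.46 ± 0.18 (SE; adjusted p = 0.113). The Celf1 difference passed under median-of-ratios scaling at -0.65 (adjusted p = 0.0337) in edgeR at -0.48 (adjusted p = 1.6e-04) and without Crat hairpin replicate 2 at -0.77, it did not in DESeq2 (adjusted p = 0.0684), and it was -0.15 without Crat hairpin replicate 1. Rbfox2, which binds a short motif in introns beside muscle exons, stood at 228 and 241 RPM in the controls and at 205 and 232 RPM in the Crat hairpin libraries, with a log2 fold change of -0.10 ± 0.11 (SE; adjusted p = 0.553).

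**Figure D3:**
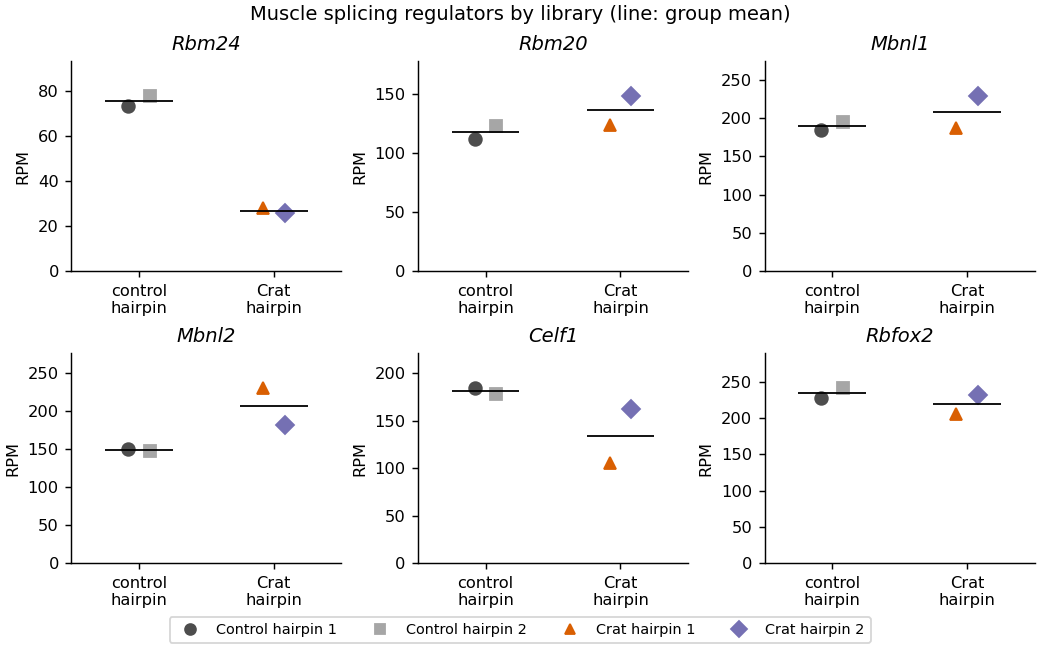
RPM of the 6 muscle splicing regulators in each library, with axes from 0 and a line at each group mean. Rbm24 drops from 73.7 and 77.9 to 28.0 and 25.9 RPM, Mbnl2 and Celf1 show their widest gap in Crat hairpin replicate 1, and Rbm20, Mbnl1 and Rbfox2 differ little.

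With all libraries no SR protein gene passed limma in either direction, where 12.6% of all genes were called higher and 6.36% lower. Of the 10 SR genes 3 had an unadjusted p below 0.05, all higher (Srsf3, Srsf9 and Srsf11). DESeq2 also called 0 (6.13% of all genes higher and 7.09% lower) and edgeR 0 (13.7% and 15.9%). With library totals edgeR called 3 higher, Srsf5, Srsf7 and Srsf11, where 22.6% of all genes were called higher. The median log2 fold change of the SR genes was 0.25, and 0.06 under median-of-ratios scaling. Their summed level was 862 and 897 RPM in the controls and 1026 and 1006 RPM in the Crat hairpin libraries. In 7 of the 10 both Crat hairpin libraries lay above both controls and in 0 below, where 39.1% and 21.7% of all genes tested did so.

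The widest SR difference was in Srsf9, which stood at 32.0 and 28.8 RPM in the controls and at 46.7 and 41.9 RPM in the Crat hairpin libraries. Only 15 reads stood behind Srsf9 in Crat hairpin replicate 1, and the log2 fold change was 0.53 ± 0.22 (SE; adjusted p = 0.129). Srsf11, an SR-like protein that joins the spliceosome, stood at 67.8 and 68.8 against 103 and 85.6 RPM, a log2 fold change of 0.45 ± 0.16 (adjusted p = 0.0830). Srsf3, the smallest SR protein, which also couples splicing to export, stood at 117 and 111 against 152 and 136 RPM, a log2 fold change of 0.34 ± 0.13 (adjusted p = 0.103). In these 3 genes the Crat hairpin libraries were higher without overlap. With Crat hairpin replicate 2 left out the log2 fold changes were 0.60 for Srsf9, 0.58 for Srsf11 and 0.42 for Srsf3. Those values rest on the shallowest library alone, with 15, 33 and 49 reads for these genes. The lowest values with any library left out were 0.45, 0.32 and 0.25.

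Srsf5 stood at 107 and 101 against 115 and 136 RPM, Srsf7 at 49.3 and 65.1 against 74.6 and 69.0, Srsf10 at 63.3 and 57.5 against 65.3 and 78.3, and Srsf6 at 106 and 117 against 121 and 126. Their log2 fold changes were 0.26, 0.34, 0.24 and 0.15, and none passed. With a library left out they ran from 0.14 to 0.39 for Srsf5, where 0.39 without Crat hairpin replicate 1 passed, from 0.14 to 0.53 for Srsf7, from 0.11 to 0.37 for Srsf10 and from 0.083 to 0.22 for Srsf6. Srsf2, which activates exons from enhancers, stood at 102 and 115 against 118 and 106 RPM, and Srsf4 at 43.2 and 49.9 against 46.7 and 56.1, so the groups overlapped in both genes.

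Srsf1, the founding SR protein, which in heart acts on the splicing of the calcium kinase gene Camk2d, was nearly level. It stood at 175 and 183 RPM in the controls and at 184 and 171 RPM in the Crat hairpin libraries, a log2 fold change of -0.01 ± 0.11 (SE; adjusted p = 0.949) with a 95% interval from -0.26 to 0.23. In the authors' deposited table Srsf1 has an adjusted p of 0.0347. That table gives group means but no fold change, and those means, with 1 added, give a log2 fold change of -0.0126. Srsf1 was -0.20 under median-of-ratios scaling (adjusted p = 0.246) and -0.22 in DESeq2 on the recovered reads (adjusted p = 0.602), so neither repeated that call.

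**Figure D4:**
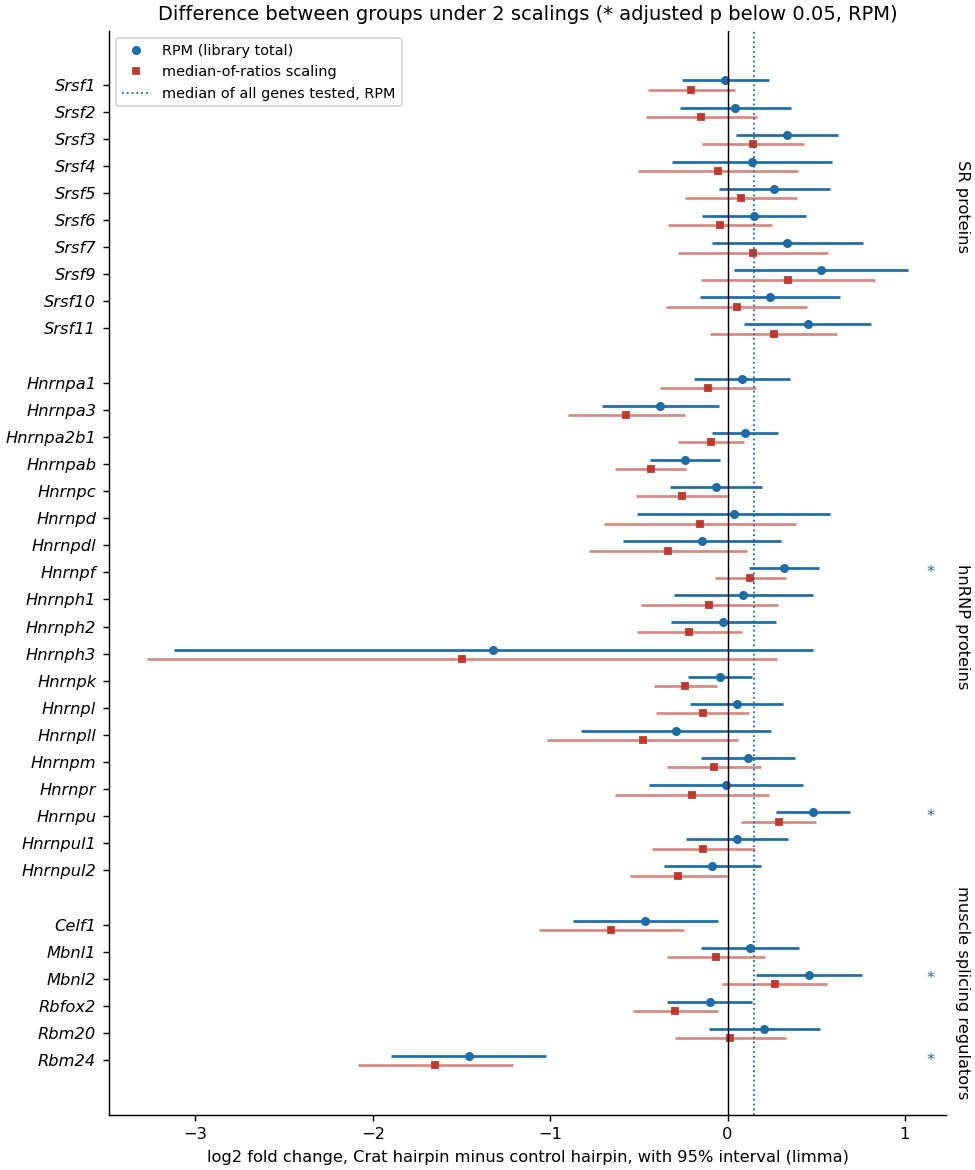
Log2 fold change of each gene with its 95% limma interval in RPM (circles) and under median-of-ratios scaling (squares), with the median of all genes tested in RPM as a dotted line. The second scaling moves every gene to the left by a similar amount, which takes the 3 rises below the threshold while Rbm24 stays apart.

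Among the 19 hnRNP genes 2 rose and none fell in RPM (12.6% and 6.36% of all genes), while under median-of-ratios scaling none rose and 2 fell (8.06% and 9.68%), so the counts lie near or below these shares. In edgeR 1 rose and 5 fell (13.7% and 15.9%), the falls being Hnrnpa3, Hnrnpab, Hnrnph2, Hnrnpk and Hnrnpul2. Hnrnpu, a scaffold protein that binds both RNA and chromatin, stood at 290 and 261 RPM in the controls and at 370 and 399 RPM in the Crat hairpin libraries, with no overlap. Its log2 fold change was 0.48 ± 0.09 (SE; adjusted p = 0.00602). It was 0.29 under median-of-ratios scaling (adjusted p = 0.0661) and 0.27 in edgeR, where it passed (adjusted p = 0.00902). Hnrnpu did not pass in DESeq2 on the recovered reads (adjusted p = 0.177) or in the authors' deposited table (adjusted p = 0.214). Without control replicate 1 the adjusted p was 0.0768 and without control replicate 2 it was 0.192, while the Hnrnpu log2 fold change stayed between 0.41 and 0.56 with any library left out.

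Hnrnpf binds runs of G beside exons. It stood at 312 and 284 RPM in the controls and at 370 and 373 RPM in the Crat hairpin libraries. On the recovered reads Hnrnpf did not pass in edgeR (adjusted p = 0.493) or in DESeq2 (adjusted p = 0.763). Nor did it pass in the authors' deposited table (adjusted p = 0.923). Its log2 fold change in RPM was 0.32 ± 0.09 (SE; limma adjusted p = 0.0317). Under median-of-ratios scaling it was 0.13 (adjusted p = 0.381), and the Hnrnpf call was also lost without control replicate 1 (adjusted p = 0.182) and without control replicate 2 (adjusted p = 0.440).

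Hnrnpab and Hnrnpa3 were lower in both Crat hairpin libraries without passing in RPM. Hnrnpab, an RNA-binding protein of the A and B group, stood at 321 and 322 RPM in the controls and at 264 and 280 RPM in the Crat hairpin libraries, a log2 fold change of -0.24 ± 0.09 (SE; adjusted p = 0.0910). The Hnrnpab difference passed under median-of-ratios scaling at -0.43 (adjusted p = 0.00775) and in edgeR and DESeq2 at -0.42 each, and in the authors' deposited table its adjusted p is 0.0418. Hnrnpa3 stood at 231 and 236 RPM in the controls and at 152 and 211 RPM in the Crat hairpin libraries. Its log2 fold change was -0.38 ± 0.15 (SE; adjusted p = 0.109), it passed under median-of-ratios scaling at -0.57 (adjusted p = 0.0242), and it was -0.15 without Crat hairpin replicate 1 and -0.61 without Crat hairpin replicate 2. It was described after its values were seen.

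The other hnRNP genes of highest mean did not pass in RPM. Hnrnpa1, which silences exons and has many close copies in the genome that can share its reads, stood at 265 and 250 RPM in the controls and at 243 and 307 RPM in the Crat hairpin libraries. Hnrnpa2b1 stood at 575 and 530 against 557 and 628 RPM, and Hnrnpk, which binds runs of C, at 495 and 537 against 479 and 521 RPM. The log2 fold changes were 0.08 for Hnrnpa1, 0.10 for Hnrnpa2b1 and -0.04 for Hnrnpk, and the groups overlapped in all 3 genes. Hnrnpk was called lower in edgeR (-0.20, adjusted p = 0.0383) and not under median-of-ratios scaling (-0.24, adjusted p = 0.0727) or in DESeq2 (adjusted p = 0.281), and Hnrnpa1 passed as higher without Crat hairpin replicate 1 (0.25, adjusted p = 0.0426).

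The Hnrnph3 value rests on a single library. Hnrnph3 stood at 27.8 and 33.3 RPM in the controls and at 3.11 and 37.6 RPM in the Crat hairpin libraries. The low value in Crat hairpin replicate 1 is a single read, with an exact Poisson interval up to 17.3 RPM that covers counting error only and stays below the intervals of the other libraries. The log2 fold change was -1.32 ± 0.80 (SE; adjusted p = 0.301), it was 0.30 without Crat hairpin replicate 1 and -2.94 without Crat hairpin replicate 2, and the cause of the low library was not tested. Hnrnph3 was also described after its values were seen. The other 11 hnRNP genes (Hnrnpc, Hnrnpd, Hnrnpdl, Hnrnph1, Hnrnph2, Hnrnpl, Hnrnpll, Hnrnpm, Hnrnpr, Hnrnpul1 and Hnrnpul2) ran from 28.0 to 236 RPM over libraries, with log2 fold changes from -0.29 to 0.12 and adjusted p from 0.448 upward. In 9 of these 11 the groups overlapped, as they did in 5081 of the 12949 genes tested.

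Other genes of the splicing pathway were read from lists by role. The SR-related list held proteins that carry stretches of arginine and serine or sit on exon junctions, and others such as the export receptor Nxf1. Of its 27 genes 7 rose and none fell, where 12.6% of all genes rose and 6.36% fell. The median log2 fold change was 0.44 against 0.15 over all genes tested. Under median-of-ratios scaling 3 rose and none fell (8.06% and 9.68% of all genes), with a median of 0.25 against -0.03. Their summed level was 2466 and 2556 RPM in the controls and 3521 and 3421 RPM in the Crat hairpin libraries. Nxf1, the receptor for mRNA export, stood at 99.2 and 102 against 162 and 172 RPM, a log2 fold change of 0.72 ± 0.12. Son, a scaffold of nuclear speckles where splicing factors are stored, stood at 328 and 318 against 467 and 534 RPM, a log2 fold change of 0.63 ± 0.09. Luc7l3 had a log2 fold change of 0.65 ± 0.17, and it did not pass under median-of-ratios scaling (adjusted p = 0.0973) whereas Nxf1 and Son did (adjusted p = 0.0144 and 0.00818).

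Of 11 kinases and partners of SR proteins 1 rose and 1 fell, under both scalings. Among all genes 12.6% rose and 6.36% fell in RPM, and 8.06% and 9.68% under median-of-ratios scaling. Srpk2, a kinase that phosphorylates SR proteins in the cytoplasm, stood at 59.4 and 47.7 RPM in the controls and at 106 and 104 RPM in the Crat hairpin libraries, a log2 fold change of 0.96 ± 0.17 (SE; adjusted p = 0.00347). Tnpo3, which imports phosphorylated SR proteins into the nucleus, stood at 68.1 and 68.8 against 37.3 and 45.6 RPM, a log2 fold change of -0.72 ± 0.19 (adjusted p = 0.0267). In the authors' deposited table neither passed, with an adjusted p of 0.0654 for Srpk2 and 0.768 for Tnpo3. Of the CLK kinases, which phosphorylate SR proteins in the nucleus, Clk1, Clk3 and Clk4 did not pass limma at a minimum mean of 1 RPM, where Clk4 had a log2 fold change of 0.85 ± 0.28 (adjusted p = 0.0665). With a minimum mean of 10 RPM both Srpk2 and Clk4 rose and 1 gene of this list fell, where 18.5% of all genes were called higher and 9.35% lower. The list median was 0.17 with all libraries and 0.36 without Crat hairpin replicate 1, against 0.15 and 0.18 over all genes tested.

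Of 24 hnRNP-type proteins under other symbols 3 rose and 1 fell in RPM, against 2 and 2 with median-of-ratios scaling. The shares of all genes called higher and lower were 12.6% and 6.36% in RPM, and 8.06% and 9.68% under that scaling. Ptbp3, a relative of the exon silencer PTBP1, stood at 50.3 and 38.6 against 109 and 90.0 RPM, a log2 fold change of 1.15 ± 0.19, and Ewsr1 had a log2 fold change of 0.66. In the authors' deposited table the adjusted p is 0.511 for Ptbp3 and 0.136 for Ewsr1. Of 21 other tissue splicing regulators 2 rose and 2 fell, and 1 rose and 3 fell under median-of-ratios scaling, beside the same shares of all genes. Rbm39, a partner of the factor that recognises the branch site region, had a log2 fold change of 0.61, Celf2, at the threshold, one of -0.59 (adjusted p = 0.0495) and Rbpms, a muscle splicing regulator, one of -0.55. Celf2 was -0.36 without Crat hairpin replicate 1, and it lost the call with a pseudocount of 0.25 (adjusted p = 0.0582), with no filter (adjusted p = 0.0731), in DESeq2 (adjusted p = 0.0581), without control replicate 1 (adjusted p = 0.311) and without control replicate 2 (adjusted p = 0.529). The second member that rose, Zfp36l1 at a log2 fold change of 0.51, is better known for mRNA decay.

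The core spliceosome held 5 rises and 1 fall among 51 genes in RPM, and 1 rise and 3 falls under median-of-ratios scaling, where 12.6% and 6.36% of all genes, and 8.06% and 9.68% under that scaling, were called higher and lower. Snrpc, a protein of the U1 particle, fell by 1.16 on the log2 scale, while Snrnp70, of the same particle, had a log2 fold change of 0.51. Under median-of-ratios scaling Snrpc passed (limma adjusted p = 0.00532) and Snrnp70 did not (limma adjusted p = 0.0944). In the authors' deposited table the adjusted p is 0.00867 for Snrpc and 0.426 for Snrnp70. Genes known as splicing targets of RBM20 fell in 10 of 17 cases and rose in 1, with a median log2 fold change of -0.44, and fell in 12 and rose in 0 under median-of-ratios scaling. Myom1, of the sarcomere M-band, stood at 347 and 352 against 124 and 105 RPM, a log2 fold change of -1.60 ± 0.11. Enah and Nexn, both actin binding, had log2 fold changes of -1.55 and -1.004. Many of these genes are expressed in heart muscle cells, whose markers fell as given above, and the part of the cell makeup was not tested. Without control replicate 1 or without control replicate 2 limma called 5 of the 17 lower, 1 of the 27 SR-related genes higher and none of the SR kinases, the other tissue regulators or the core spliceosome, while without Crat hairpin replicate 2 it called 18 of the 27 higher and none lower, 15 of the 51 core spliceosome genes higher and 7 lower, and 3 of the 17 RBM20 targets higher and 12 lower, where 27.7% of all genes were called higher and 20.3% lower. These are changes in the amount of each target's transcript and carry no measure of its exons.

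**Figure D5:**
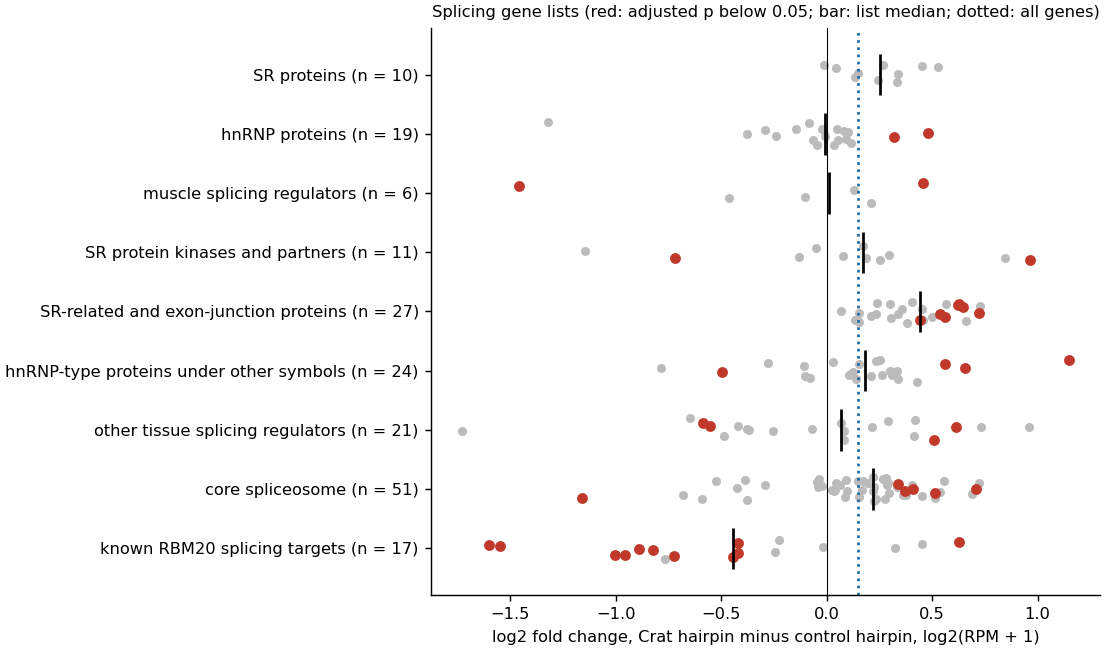
Log2 fold change of every gene tested in the 3 groups of splicing regulators and in 6 related lists, with genes past the threshold in red, the list median as a bar and the median of all genes as a dotted line. The SR-related list lies to the right with a median of 0.44, the RBM20 target list to the left with a median of -0.44, and the hnRNP genes sit near 0.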

How the data were processed

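RNA-seq was done on 4 libraries of total RNA. The submitters' processing notes name kallisto, DESeq2 and the build mRatBN7.2; for other steps, tools and settings are not given in the sources used here. In the table, the authors deposited a signal per gene and library, which the file headers call TPM. Within a library all values are multiples of 1 step, so the signal is RPM, and 100% of values gave whole reads (tolerance 0.02 of a read). The deposited p-value and its adjusted form were read only for comparison. Of 14318 rows, 14137 unique identifiers were used once each, with names from the table.

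Log2(RPM + 1) was fitted by limma 3.58.1 (R 4.3.3), letting the variance follow the mean, for genes averaging 1 RPM or more. P-values were adjusted by Benjamini-Hochberg, and the fit was tested on simulated data. Recovered reads were tested with edgeR 4.0.16 and DESeq2 1.42.0. Alternatives changed the pseudocount, the filter, the scaling or the variance prior, added a replicate block, thinned the reads or left out a library. The genes and lists were chosen with earlier results of these data known. All SR genes, all muscle regulators, every hnRNP gene that passed and the 4 hnRNP genes of highest mean that did not are described, and up to 3 genes of each related list by size of change, of which 2 are not reported here.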

Additional observations from a re-analysis of the deposited data

How the results depend on the processing

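The 3 rises and 1 fall became 0 rises and 4 falls under median-of-ratios and under TMM scaling, 0 and 1 without a variance trend, 1 and 7 in edgeR, 0 and 2 in DESeq2, 0 and 0 after thinning, and 0 and 3 by the authors' deposited adjusted p, with directions from their group means. In edgeR with library totals only, added after the data were seen, they were 7 and 3. With a library left out the rises ran from 0 to 8 and the falls from 0 to 7. Other pseudocounts, other filters and the robust prior gave 2 or 3 rises and 1 fall. The replicate block gave 3 rises and 1 fall and changed no call of a named gene; the labels number the libraries, and deviations of equal numbers had a correlation of 0.00612 over genes. The causes were not tested beyond the shift each scaling makes.

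Under median-of-ratios scaling the members with a positive value went from 21 to 10, among them Hnrnpd, Hnrnph1, Hnrnpl, Hnrnpm and Hnrnpul1. For the genes described singly, the values that changed sign were these. Under median-of-ratios scaling the log2 fold changes were -0.11 for Hnrnpa1, -0.093 for Hnrnpa2b1, -0.065 for Mbnl1, -0.15 for Srsf2, -0.053 for Srsf4 and -0.041 for Srsf6. Under TMM scaling they were -0.12, -0.11, -0.077, -0.16, -0.065 and -0.054 for Hnrnpa1, Hnrnpa2b1, Mbnl1, Srsf2, Srsf4 and Srsf6. In edgeR they were -0.044 for Hnrnpa1, -0.081 for Hnrnpa2b1, -0.16 for Srsf2 and -0.00245 for Srsf6, and in DESeq2 -0.058, -0.075, -0.16 and -0.023, with -0.0070 for Mbnl1. With library totals only, edgeR gave 0.12 for Hnrnph3 and 0.0036 for Hnrnpk. After thinning Hnrnpk was 0.017, Mbnl1 -0.074 and Srsf2 -0.0034. With a library left out the ranges were -0.087 to 0.25 for Hnrnpa1, -2.94 to 0.30 for Hnrnph3, -0.11 to 0.016 for Hnrnpk, -0.018 to 0.27 for Mbnl1, -0.062 to 0.036 for Srsf1 and -0.039 to 0.13 for Srsf2. Depth limits the values of Crat hairpin replicate 1, where members had 1 to 179 reads.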
